A study of Rattus norvegicus with 9 samples.

Results

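The genes of the rat major histocompatibility complex (MHC) and their partners in antigen processing were followed in dorsal root ganglion (DRG) RNA. They were all genes whose symbol begins with RT1-, the prefix of rat MHC genes, together with B2m, Cd74, Tap1, Tap2, Tapbp, Psmb8, Psmb9, Psmb10, Ciita and Nlrc5, which made 46 of the 20194 genes in the deposited table. Of these, 26 were RT1 class I genes, 10 were RT1 class II genes and 10 were the named partners. Levels are given as FPKM, which are read fragments scaled to transcript length and library size. The filter before testing, 1 FPKM or more in any of the 9 libraries, was passed by 39 of the 46. The 7 genes left out were RT1-M1-4, RT1-M1-5, RT1-M6-1, RT1-M10-1, RT1-M5, RT1-M2 and RT1-Ha, none of which passed 0.32 FPKM in any library.

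RNA came from DRG of male Sprague Dawley rats in a sham group, a spared nerve injury (SNI) group and an SNI group given G15 (SNI + G15), with 3 libraries each. SNI cuts branches of the sciatic nerve and leaves another intact, and G15 is an antagonist of the G protein-coupled oestrogen receptor (GPER). Per the labels, an intrathecal catheter was placed on day 5 of SNI and drugs dissolved in 2% DMSO were given through it over 24 h. The sham and SNI libraries carry the note of being the G15 control, but the labels do not state what each of those rats received. The methods describe ipsilateral lumbar ganglia, so neurons, glia, vessels and immune cells were sequenced together. The labelled extraction text names macrophages treated with exosomes in place of ganglia, whereas Prph, an intermediate filament of sensory neurons, was at 1310 to 1783 FPKM in all 9 libraries and Avil, another sensory neuron gene, at 214 to 301. The labels do not say whether each library came from a single rat, and the methods and the study's list of animals give different numbers of rats for RNA-Seq, so p-values measure only the spread between these libraries. Totals lay between 18484557 and 18756736 estimated counts per library.

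MHC class I molecules pair a heavy chain with beta-2-microglobulin, encoded by B2m, and show peptides made in the cytosol to CD8+ T cells. Those peptides are cut by the proteasome, whose inducible subunits are Psmb8, Psmb9 and Psmb10, carried into the endoplasmic reticulum by the transporter Tap1-Tap2 and loaded with the help of tapasin, encoded by Tapbp. MHC class II molecules pair an alpha and a beta chain, travel with the invariant chain Cd74, exchange it for a peptide under the control of the DM and DO heterodimers, and are read by CD4+ T cells. Ciita is the master activator of class II transcription and Nlrc5 its counterpart for class I. In peripheral nerve and ganglia, class II is mainly a mark of macrophages, while class I is made at some level by most cells. In the rat, RT1-A genes encode the classical class I heavy chains, RT1-B and RT1-D genes the class II chains, and the RT1-CE, RT1-N, RT1-S, RT1-O, RT1-T24 and RT1-M genes further class I molecules, many of them nonclassical.

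The class I genes are near copies of each other, and the deposited counts show how often reads had to be divided. Estimated counts were not whole in at least 1 library for 25 of the 26 class I genes (96.2%), for 29 of the 39 tested members (74.4%) and for 5357 of all 14305 tested genes (37.4%). Of the tested members, RT1-Da, RT1-Ba, RT1-DMa, RT1-DOb, B2m, Cd74, Psmb10, Tapbp, Psmb9 and Ciita had whole counts in all 9 libraries. Values of single class I genes are therefore uncertain in how reads were shared among relatives, and RT1 alleles also differ between rat strains. The sums over class I or class II genes, given without a test, depend less on how reads were shared within each class.

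In sham ganglia B2m was the most abundant member, at 509 ± 37.4 FPKM (SD, n = 3), followed by Cd74 at 97.3 ± 5.28. RT1-CE5 (57.0 FPKM) and RT1-A2 (56.6 FPKM) came next, and their sham values overlapped. RT1-Da, the class II alpha chain of the D locus and the most abundant class II gene, stood at rank 9 of the 39 with 25.7 FPKM. The regulators were near the bottom, with 0.71 FPKM for Nlrc5 and 0.41 FPKM for Ciita. After SNI, RT1-Da stood at rank 4, RT1-Ba moved from rank 16 to 6 and RT1-Bb from rank 29 to 9, while RT1-T24-3 went from rank 7 to 21.

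To ask how nerve injury altered these genes, SNI was compared with sham by edgeR's quasi-likelihood test on rounded estimated counts, with p-values adjusted over all tested genes and calls made at an adjusted p below 0.05. Class II genes rose throughout, the partners all rose, most of them by less, and class I genes split. All 9 tested class II genes and all 10 partners were higher in SNI, and of 20 tested class I genes 10 were higher, 3 were lower and 7 did not pass. Nlrc5 and RT1-DOb passed the filter only through SNI libraries, and RT1-M6-2 only through SNI + G15. Ciita and RT1-DOa passed it only through SNI and SNI + G15 libraries. Entry of these genes thus depended on their levels after injury, and the counts and medians of each comparison include them. Their p-values in comparisons with a group that let them in do not stand apart from that entry. Over the 39 members, 29 were higher and 3 lower, where 23.3% of all tested genes were higher and 22.4% lower (45.7% in either direction). The FPKM of SNI and sham did not overlap for 30 members higher in SNI and 3 lower, beside 31.1% and 22.8% of all tested genes (53.9% in either direction). The median log2 fold change was 1.51 for class II, 0.48 for the partners and 0.37 for class I, beside 0.001 over all tested genes. In bulk tissue, more cells of a type and more RNA per cell cannot be told apart. Among the 10 tested members with whole counts, 10 were higher, and among the 29 others 19 were higher and 3 lower.

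**Figure D1:**
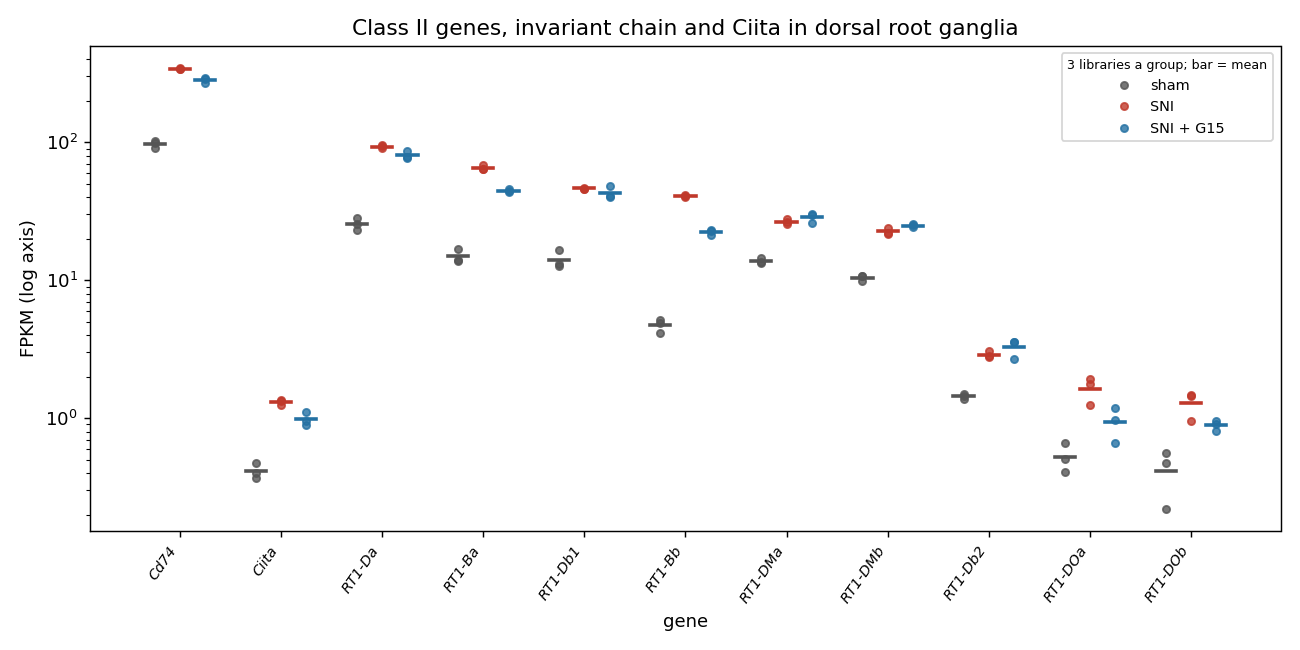
FPKM (log axis) of Cd74, Ciita and the 9 tested RT1 class II genes in each of 3 sham, 3 SNI and 3 SNI + G15 libraries, with points for libraries and bars for group means. Every SNI point of a gene lies above all its sham points, and SNI + G15 lies well below SNI for RT1-Ba and RT1-Bb but not for RT1-DMa and RT1-DMb.

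The steepest rise was that of RT1-Bb, the beta chain of the B locus. Its FPKM was 4.93, 4.18 and 5.16 in sham, 40.65, 39.86 and 41.70 in SNI and 21.36, 22.92 and 23.20 in SNI + G15. The groups did not overlap in any pair, and SNI + G15 lay between sham and SNI. The rise with SNI was 8.39-fold (log2 fold change 3.07, standard error 0.07, adjusted p = 2.94e-10, edgeR). RT1-Ba, the alpha chain that pairs with it, had 13.93, 16.88 and 13.89 FPKM in sham, 63.61, 68.53 and 63.52 in SNI and 44.24, 43.89 and 45.78 in SNI + G15. It rose 4.29-fold with SNI (log2 fold change 2.10, standard error 0.07, adjusted p = 6.39e-09, edgeR), again with no overlap between groups. Because the beta chain rose more steeply than the alpha chain, the RT1-Ba to RT1-Bb ratio of FPKM was 3.19 ± 0.74 (SD, n = 3) in sham, 1.60 ± 0.10 in SNI and 1.99 ± 0.08 in SNI + G15. Counts of RT1-Bb were not whole in any library and those of RT1-Ba were whole in all, so this ratio carries the uncertainty of shared reads.

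RT1-Da had 23.30, 28.07 and 25.66 FPKM in sham, 94.83, 93.25 and 91.41 in SNI and 76.97, 85.91 and 78.53 in SNI + G15, a 3.55-fold rise with SNI (adjusted p = 5.03e-09, edgeR). Its beta chain RT1-Db1 rose 3.22-fold (adjusted p = 7.94e-08, edgeR), and the ratio of RT1-Da to RT1-Db1 stayed between 1.56 and 2.14 in all 9 libraries. Cd74, the invariant chain that escorts class II chains, moved beside RT1-Da, with 91.43, 99.02 and 101.59 FPKM in sham, 345.83, 339.25 and 337.36 in SNI and 271.25, 288.54 and 293.58 in SNI + G15. Cd74 rose 3.39-fold (log2 fold change 1.76, standard error 0.04, adjusted p = 4.19e-10, edgeR), and its ratio to RT1-Da was 3.80 ± 0.24, 3.66 ± 0.03 and 3.54 ± 0.19 in sham, SNI and SNI + G15. Ciita, at low level, had 0.40, 0.37 and 0.47 FPKM in sham and 1.36, 1.25 and 1.34 in SNI, with no overlap and a 3.29-fold rise (adjusted p = 4.06e-06, edgeR). Because Ciita passed the filter only through SNI and SNI + G15 libraries, this p-value does not stand apart from that entry.

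The genes of peptide exchange rose less steeply. RT1-DMa and RT1-DMb, the chains of the DM heterodimer that removes the invariant chain remnant, rose 1.89-fold and 2.12-fold (adjusted p = 8.15e-07 and 3.55e-07, edgeR). RT1-DMa went from 13.28, 14.47 and 13.54 FPKM in sham to 27.57, 26.56 and 25.49 in SNI. Set against each other, RT1-Bb stood at 0.35 ± 0.05 (SD, n = 3) of the FPKM of RT1-DMa in sham and at 1.54 ± 0.09 of it in SNI. RT1-DOa and RT1-DOb, which restrain DM and are best known from B cells, were close to the filter, with at most 1.91 and 1.47 FPKM in any library, and rose 2.61-fold and 2.85-fold (adjusted p = 0.00196 and 0.00751, edgeR). Neither passed the filter through a sham library, so these p-values do not stand apart from that entry. RT1-Db2, a second D beta gene, went from a mean of 1.45 FPKM to 2.88 (adjusted p = 0.00193, edgeR).

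Macrophage markers moved in the same comparison. Of a list of 15, 14 were higher in SNI, and their summed FPKM lay between 545 and 606 in sham, between 1210 and 1255 in SNI and between 1366 and 1412 in SNI + G15. Summed class II FPKM was 86.1 ± 5.34 (SD, n = 3) in sham, 300.5 ± 4.53 in SNI and 249.3 ± 9.15 in SNI + G15. The class II sum thus stood lower in SNI + G15 than in SNI, while the macrophage sum stood higher, and of the 15 macrophage genes 3 rose and 2 fell with G15. The macrophage sum was mostly Lyz2, with means of 353, 756 and 878 FPKM in sham, SNI and SNI + G15. Means of Fcgr3a and Ptprc went down from SNI to SNI + G15, from 15.4 to 9.59 and from 3.49 to 2.58 FPKM. Csf1r, a growth factor receptor that defines macrophages, was at 12.79, 13.16 and 12.92 FPKM in sham, 25.40, 25.37 and 23.73 in SNI and 29.21, 29.84 and 25.85 in SNI + G15. Of 6 tested dendritic cell markers in a list of 9, 3 rose and 1 fell with SNI, and with G15 1 rose and 2 fell. Beside both lists, 23.3% of all tested genes rose and 22.4% fell with SNI, and 7.98% rose and 7.25% fell with G15. Itgax, an integrin also found on macrophages, had 0.35, 0.45 and 0.29 FPKM in sham, 1.64, 1.63 and 1.60 in SNI and 1.01, 1.12 and 1.18 in SNI + G15. It rose with SNI and fell with G15 (adjusted p = 1.37e-06 and 0.0113, edgeR). Batf3 and Clec10a rose 2.47-fold and 1.44-fold with SNI, and Clec10a rose a further 1.32-fold with G15 (adjusted p = 0.000313, 0.000251 and 0.0258, edgeR). Zbtb46 fell by 0.28 on the log2 scale with G15 (adjusted p = 0.0432, edgeR). Flt3 was at 7.11 to 7.40 FPKM in sham and 4.98 to 5.39 in SNI, and Xcr1 at 0.09 FPKM or less in all 9 libraries. Which cells of the ganglion carried Flt3 was not tested, so its fall need not concern dendritic cells. The part of these cells in the class II values was not tested.

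**Figure D2:**
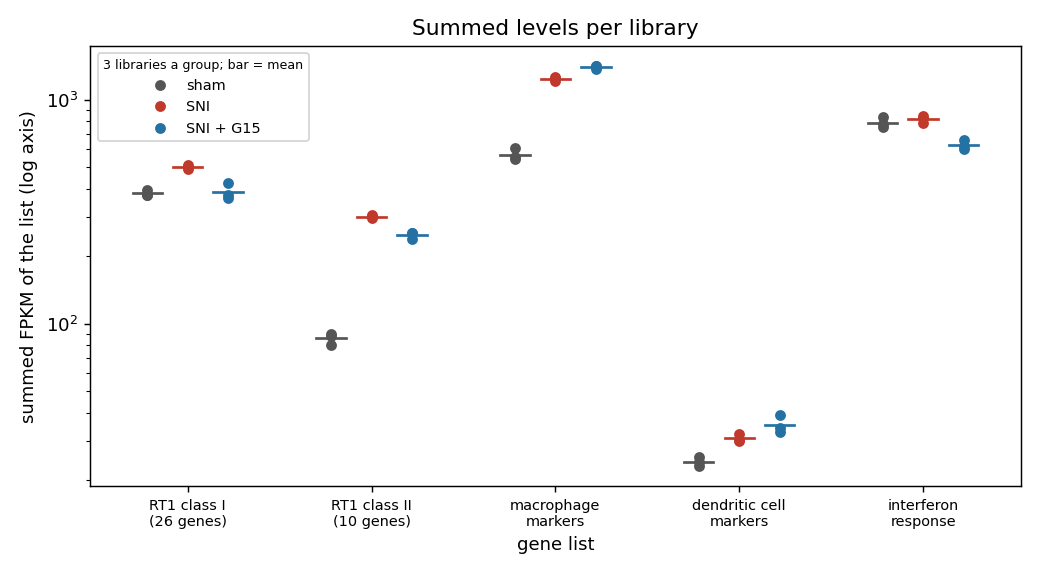
Summed FPKM (log axis) of the RT1 class I genes, the RT1 class II genes and the macrophage, dendritic cell and interferon response lists in each library, with bars for means of 3 libraries. Class II and macrophage sums both rose from sham to SNI, and from SNI to SNI + G15 the class II mean went from 300.5 to 249.3 while the macrophage points moved up to 1366 to 1412. Most of the macrophage sum was Lyz2, with means of 756 FPKM in SNI and 878 in SNI + G15.

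To show what lies before these genes, the 200 bases upstream of the RefSeq gene start were taken from the rat assembly GRCr8. The 3 below are the B chains, which were lower with G15, and RT1-DMa, which was not. Capitals mark CCAAT on either strand (read as ATTGG on the reverse), the core of the Y box that NF-Y binds in class II promoters, and no other motif was marked. RT1-Bb (gene ID 309622) is shown for chr20:4604119-4604318, minus strand, RT1-Ba (gene ID 309621) for chr20:4576857-4577056, plus strand, and RT1-DMa (gene ID 294274) for chr20:4712336-4712535, minus strand.
RT1-Bb: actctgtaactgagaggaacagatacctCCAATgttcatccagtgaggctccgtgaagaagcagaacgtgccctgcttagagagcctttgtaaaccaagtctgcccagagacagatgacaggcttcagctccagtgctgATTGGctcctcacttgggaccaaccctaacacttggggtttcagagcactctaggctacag
RT1-Ba: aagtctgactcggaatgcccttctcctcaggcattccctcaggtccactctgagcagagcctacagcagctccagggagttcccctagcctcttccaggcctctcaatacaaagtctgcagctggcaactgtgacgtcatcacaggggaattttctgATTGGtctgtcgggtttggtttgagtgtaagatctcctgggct
RT1-DMa: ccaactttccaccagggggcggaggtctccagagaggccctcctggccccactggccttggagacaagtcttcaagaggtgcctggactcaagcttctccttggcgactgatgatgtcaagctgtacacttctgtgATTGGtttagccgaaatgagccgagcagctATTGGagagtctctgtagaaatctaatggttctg

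CCAAT was present on either strand within 250 bases before to 50 after the start in 9 of the 9 class II genes with an entry in the promoter table, in 16 of 23 class I genes and in 4 of 8 partners, beside 37.5% of all 33469 promoters of that length. The 3 class II windows printed all hold it close to the start, including that of RT1-DMa. These are letters in a reference sequence from another strain and not binding measured here.

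**Figure D3:**
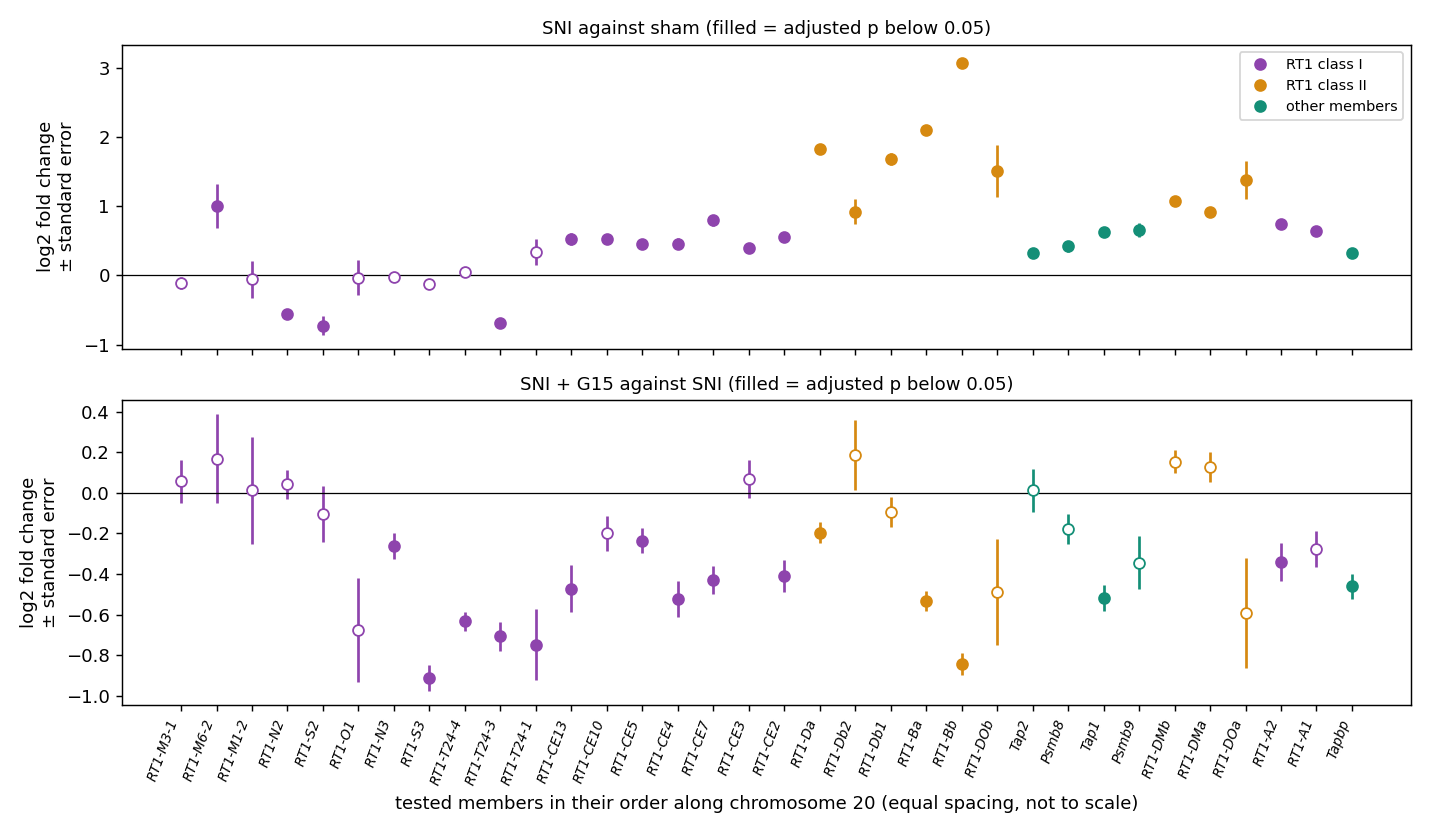
Log2 fold change with its standard error for the tested members on chromosome 20 in RefSeq order (equal spacing), for SNI against sham above and SNI + G15 against SNI below, with filled points for an adjusted p below 0.05. The adjacent RT1-N, RT1-S, RT1-O and RT1-T24 genes have no filled point above 0 in the upper panel, whereas all RT1-CE and RT1-A genes do, and no filled point lies above 0 in the lower panel.

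Class I genes are set out here by name series, a grouping made after the values were seen. Both RT1-A genes and all 7 RT1-CE genes rose with SNI (edgeR). Of the 8 tested RT1-N, RT1-S, RT1-O and RT1-T24 genes none rose and 3 fell (edgeR). Over all tested genes 23.3% rose and 22.4% fell with SNI. Of the 3 that fell, RT1-S2 was not called by limma. At an unadjusted p below 0.05 none of the 8 was higher and RT1-S3 was also lower, and neither DESeq2 nor limma called any of them higher. In RefSeq order on chromosome 20 those 8 genes follow each other among the members, between the RT1-M genes and the RT1-CE genes, while both RT1-A genes lie beyond the class II genes, next to Tapbp. Summed FPKM of RT1-A was 89.3 ± 2.42 (SD, n = 3) in sham, 148.7 ± 4.44 in SNI and 118.0 ± 16.6 in SNI + G15. For RT1-CE it was 158.2 ± 3.65, 230.7 ± 6.25 and 187.6 ± 14.8, and for RT1-N, RT1-S, RT1-O and RT1-T24 together 122.4 ± 3.73, 108.2 ± 1.24 and 69.3 ± 1.17. The RT1-M sum was 11.6 ± 1.0, 11.5 ± 0.9 and 11.6 ± 1.7. With SNI the RT1-A and RT1-CE sums thus rose, and the pooled RT1-N, RT1-S, RT1-O and RT1-T24 sum fell. Genes of the same name within that pool differed. Mean RT1-T24-3 went from 32.4 FPKM in sham to 20.3 in SNI, while RT1-T24-4 went from 33.6 to 35.4. RT1-N2 went from 8.93 to 6.16, and RT1-N3 was at 9.94 and 9.93. Reads may have been divided between as well as within series.

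RT1-A2, a classical class I heavy chain and the most abundant class I gene in SNI, had 55.62, 58.87 and 55.39 FPKM in sham, 98.19, 98.18 and 93.49 in SNI and 70.41, 67.82 and 88.07 in SNI + G15. It rose 1.67-fold with SNI (log2 fold change 0.74, standard error 0.04, adjusted p = 3.09e-07, edgeR), and RT1-A1 rose 1.56-fold (adjusted p = 2.46e-06, edgeR). The ratio of RT1-A2 to RT1-A1 stayed between 1.65 and 1.91 in all libraries. Among RT1-CE genes the rise ran from 1.31-fold for RT1-CE3 to 1.74-fold for RT1-CE7 (adjusted p = 0.00109 and 1.42e-05, edgeR). RT1-CE5, the most abundant of them, had 54.87, 59.55 and 56.69 FPKM in sham, 78.51, 82.95 and 76.33 in SNI and 66.83, 62.16 and 71.64 in SNI + G15. Its values in the 3 groups did not overlap. RT1-CE10, RT1-CE13, RT1-CE2 and RT1-CE4 rose 1.44-fold, 1.44-fold, 1.47-fold and 1.38-fold, from means of 23.2, 20.1, 15.9 and 13.1 FPKM in sham to 35.4, 29.6, 24.0 and 18.4 in SNI.

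RT1-T24-3 moved the other way, with 32.22, 34.35 and 30.55 FPKM in sham, 20.95, 19.90 and 20.05 in SNI and 13.19, 10.98 and 12.85 in SNI + G15. The 3 groups did not overlap, and the gene fell by 0.69 on the log2 scale with SNI (standard error 0.06, adjusted p = 4.91e-06, edgeR). RT1-N2 fell by 0.55 (adjusted p = 6.19e-05, edgeR). RT1-S2 fell by 0.72 (adjusted p = 0.00176, edgeR), but its FPKM overlapped between sham (1.39 to 1.58) and SNI (1.27 to 1.59), and limma on FPKM did not call it (adjusted p up to 0.881). The counts of RT1-S2 came mostly from 1 transcript, which had 144.33, 113.96 and 107.43 estimated counts in sham and 74.27, 61.75 and 72.45 in SNI. Its other transcript, with few reads, had 2.05, 3.13 and 3.88 counts in sham and 5.41, 8.23 and 8.54 in SNI. RT1-T24-4, in contrast, had 33.65, 34.15 and 33.07 FPKM in sham and 35.39, 34.90 and 36.05 in SNI (adjusted p = 0.405, edgeR), and RT1-S3 had 30.25, 31.42 and 30.08 in sham and 29.97, 28.78 and 27.25 in SNI (adjusted p = 0.0589, edgeR). Of the RT1-M genes, RT1-M6-2 was called higher at 0.37 to 0.63 FPKM in sham and 0.74 to 0.94 in SNI (adjusted p = 0.0249, edgeR), a call that DESeq2 and limma did not make, and RT1-M3-1 stayed at 7.83 to 10.54 FPKM over all 9 libraries. RT1-N3 (means of 9.94 and 9.93 FPKM in sham and SNI), RT1-T24-1 (2.83 and 3.66), RT1-O1 (2.65 and 2.62) and RT1-M1-2 (1.17 and 0.88) did not pass either.

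**Figure D4:**
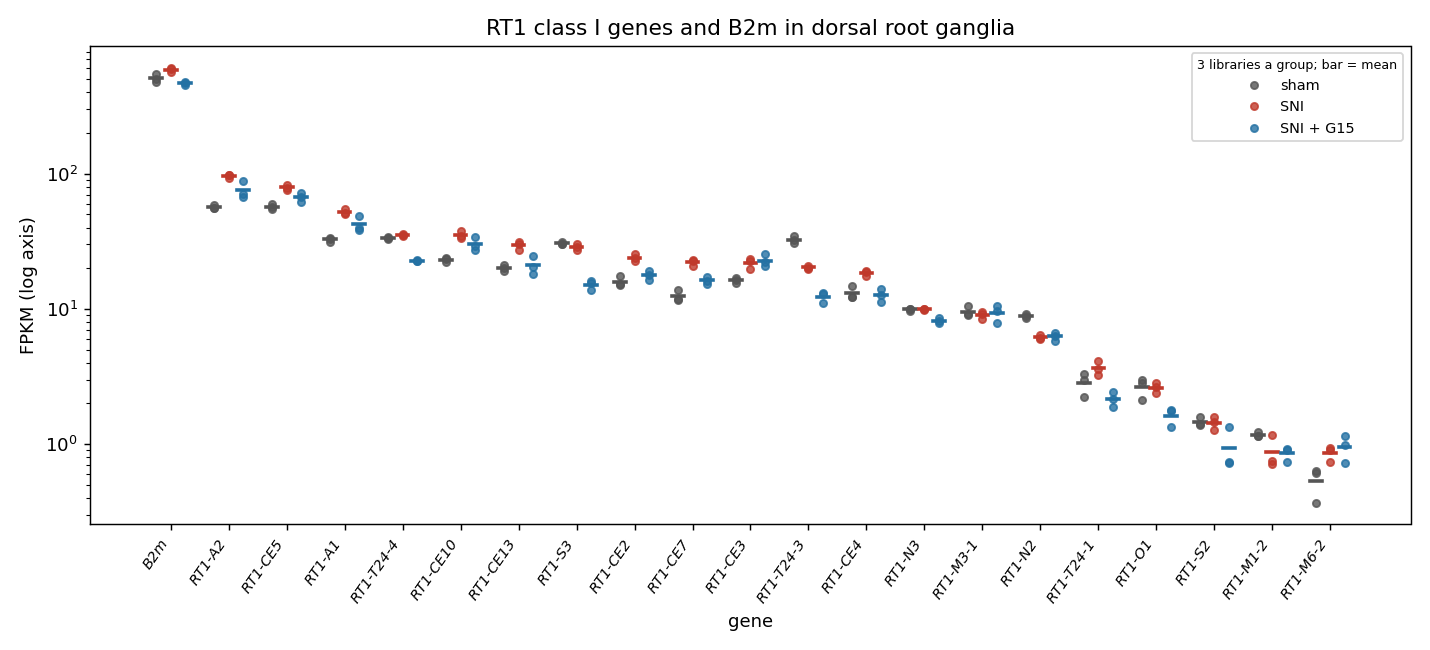
FPKM (log axis) of B2m and the 20 tested RT1 class I genes in each of 3 libraries per group, with bars for means. RT1-A and RT1-CE means stand highest in SNI except for RT1-CE3, RT1-T24-3 steps down from sham to SNI and again in SNI + G15, and RT1-T24-4 and RT1-S3 step down from SNI to SNI + G15.

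Upstream sequences of class I genes of differing behaviour are shown for comparison, in GRCr8 and 5′ to 3′. Capitals mark CCAAT as before and, on either strand, the interferon motif, spelled GAAA, any pair of bases, GAAA, a core that interferon regulatory factors bind. The pair of motifs shared no bases in these windows. RT1-A2 (gene ID 24974) is given for chr20:4872671-4872870, plus strand, RT1-S3 (gene ID 294228) for chr20:2675328-2675527, plus strand, and RT1-T24-3 (gene ID 414788) for chr20:2722925-2723124, plus strand.
RT1-A2: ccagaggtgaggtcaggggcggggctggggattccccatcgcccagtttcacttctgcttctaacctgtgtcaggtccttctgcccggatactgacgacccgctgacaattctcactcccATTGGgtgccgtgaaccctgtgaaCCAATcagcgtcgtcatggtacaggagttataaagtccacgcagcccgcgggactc
RT1-S3: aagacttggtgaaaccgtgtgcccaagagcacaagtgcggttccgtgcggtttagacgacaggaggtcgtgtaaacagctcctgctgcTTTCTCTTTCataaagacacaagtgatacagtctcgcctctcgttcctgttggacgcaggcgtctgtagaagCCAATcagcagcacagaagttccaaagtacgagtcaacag
RT1-T24-3: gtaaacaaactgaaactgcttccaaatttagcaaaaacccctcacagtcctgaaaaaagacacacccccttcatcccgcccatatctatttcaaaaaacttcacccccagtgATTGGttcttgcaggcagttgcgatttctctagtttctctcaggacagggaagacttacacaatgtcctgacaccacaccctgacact

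The interferon motif in this exact spelling occurred in 3 of 23 class I promoters (RT1-N3, RT1-S2 and RT1-S3). It occurred in none of 9 class II promoters and in 6 of 8 partner promoters, beside 3.92% of all promoters. Looser spellings were not searched, so a promoter without a match may still hold a related site. The stretch tttcacttct in the RT1-A2 window above, for example, resembles the reverse strand of the motif but was not matched. The 6 partners were B2m, Psmb8, Psmb10, Tap1, Tap2 and Tapbp. Of these, B2m, Tap1 and Tapbp were called lower with G15, and Psmb8, Psmb10 and Tap2 were not. Without the motif, Cd74 was called lower and Psmb9 was not. B2m and Tapbp are shown with the same capitals. B2m (gene ID 24223) is given for chr3:129549130-129549329, plus strand, and Tapbp (gene ID 25217) for chr20:4967878-4968077, minus strand.
B2m: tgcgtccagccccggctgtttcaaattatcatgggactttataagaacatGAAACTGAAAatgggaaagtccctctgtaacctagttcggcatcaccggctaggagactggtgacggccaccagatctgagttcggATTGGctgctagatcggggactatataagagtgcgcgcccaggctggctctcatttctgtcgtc
Tapbp: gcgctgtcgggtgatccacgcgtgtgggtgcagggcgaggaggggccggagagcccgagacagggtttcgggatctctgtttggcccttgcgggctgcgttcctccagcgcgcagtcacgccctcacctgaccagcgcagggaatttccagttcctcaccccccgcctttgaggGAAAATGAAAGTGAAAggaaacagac

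The partners of class I rose with SNI by 1.13-fold to 1.58-fold. B2m, the shared light chain, had 497.62, 550.86 and 478.78 FPKM in sham, 608.42, 593.11 and 563.51 in SNI and 474.92, 455.94 and 469.49 in SNI + G15. It rose 1.13-fold with SNI (log2 fold change 0.18, standard error 0.05, adjusted p = 0.0142, edgeR), without overlap, and the call was lost without SNI replicate 1 (adjusted p = 0.0628). Tap1, the first chain of the peptide transporter, went from 8.30, 8.51 and 9.17 FPKM to 14.08, 13.56 and 13.57, a 1.55-fold rise (adjusted p = 6.44e-06, edgeR), while Tap2 rose 1.26-fold (adjusted p = 0.00358, edgeR). The ratio of Tap1 to Tap2 was 1.50 ± 0.07 (SD, n = 3) in sham, 1.87 ± 0.19 in SNI and 1.30 ± 0.10 in SNI + G15. Tapbp rose 1.26-fold and Nlrc5 1.45-fold (adjusted p = 0.00173 and 0.00138, edgeR). Because Nlrc5 passed the filter only through SNI libraries, its p-value does not stand apart from that entry.

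The inducible proteasome subunits were compared with the constitutive ones they replace. Psmb9 rose 1.58-fold, Psmb8 1.34-fold and Psmb10 1.23-fold (adjusted p = 0.000329, 0.00167 and 0.00273, edgeR). Psmb8 stood at 0.073 ± 0.003 (SD, n = 3) of the FPKM of Psmb5 in sham, 0.110 ± 0.005 in SNI and 0.081 ± 0.004 in SNI + G15. Psmb9 stood at 0.041 ± 0.002, 0.071 ± 0.003 and 0.048 ± 0.005 of Psmb6. Psmb10 stood at 0.113 ± 0.003, 0.151 ± 0.005 and 0.137 ± 0.001 of Psmb7. In each of the 3 pairs the SNI ratios lay above all sham ratios, and the inducible transcript remained the minor one.

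**Figure D5:**
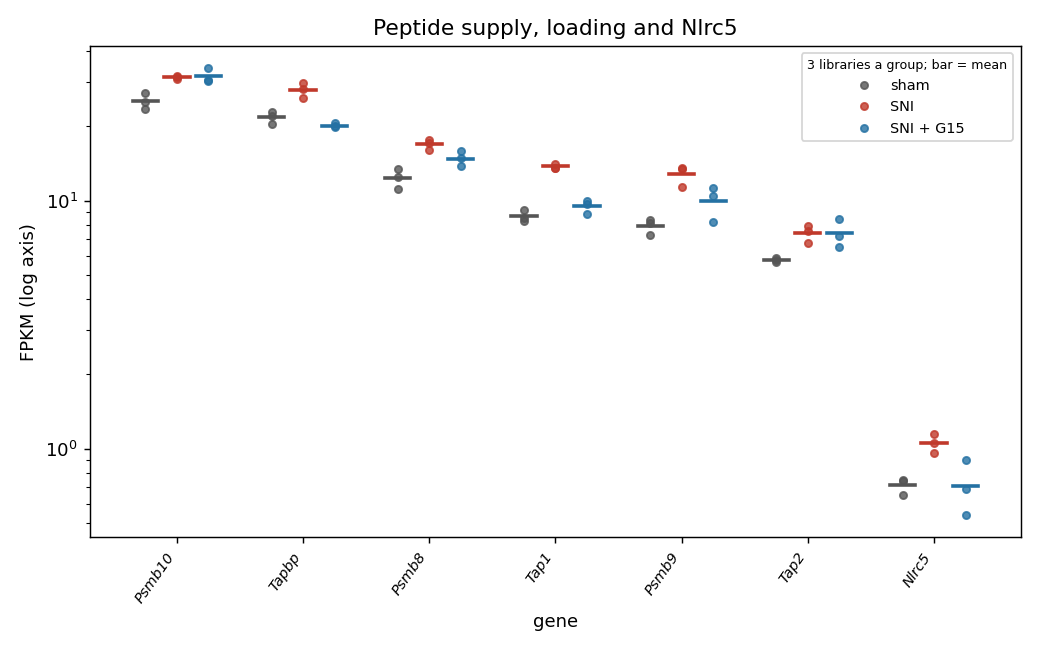
FPKM (log axis) of Psmb10, Tapbp, Psmb8, Tap1, Psmb9, Tap2 and Nlrc5 in each of 3 libraries per group, with bars for means. All SNI points lie above the sham points of the same gene, and Tap1 and Tapbp of SNI + G15 are back near the sham points, with means of 9.50 against 8.66 FPKM for Tap1 and 20.1 against 21.7 FPKM for Tapbp.

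The effect of G15 was then asked by comparing SNI + G15 with SNI, whose libraries also served in the comparison with sham. No member rose and 19 of 39 fell, namely 11 of 20 class I genes, 3 of 9 class II genes and 5 of 10 partners, where 7.25% of all tested genes fell and 7.98% rose (15.2% in either direction). The FPKM did not overlap for 25 members lower and 1 higher with G15, beside 21.0% and 17.3% of all tested genes (38.3% in either direction). The median log2 fold change was -0.31 for class I, -0.20 for class II and -0.33 for the partners, beside 0.0063 over all tested genes. With edgeR 1 member, RT1-DMb, was higher at an unadjusted p below 0.05, and neither DESeq2 nor limma called a member higher. The count of 19 was 12 without SNI replicate 2, 12 without SNI replicate 3 and 22 without SNI + G15 replicate 3. That last library had the highest RT1-A sum of its group, 137.03 FPKM beside 110.42 and 106.45. Of the 19 calls, 12 held in all 16 alternative fits, and RT1-A2, RT1-CE5, RT1-CE13, RT1-N3, RT1-T24-1, RT1-Da and Ciita lost theirs in 1 or more, with adjusted p up to 0.157. Among tested members with whole counts 6 of 10 fell, and among the others 13 of 29.

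RT1-S3, a nonclassical class I gene, fell most. Its FPKM was 29.97, 28.78 and 27.25 in SNI and 15.51, 16.06 and 13.76 in SNI + G15, with no overlap, and it fell by 0.91 on the log2 scale (standard error 0.06, adjusted p = 6.44e-05, edgeR). RT1-T24-4 went from 35.39, 34.90 and 36.05 to 22.67, 22.47 and 22.83 and fell by 0.63 (standard error 0.05, adjusted p = 8.72e-05, edgeR). RT1-T24-3 fell by 0.71 (adjusted p = 0.000497, edgeR). RT1-T24-1, at 3.27, 4.14 and 3.57 FPKM in SNI and 2.44, 2.14 and 1.88 in SNI + G15, fell by 0.75, and RT1-N3 fell by 0.26 (adjusted p = 0.0233 and 0.0271, edgeR). RT1-O1, RT1-N2 and RT1-S2 did not pass (adjusted p = 0.106, 0.736 and 0.629, edgeR). RT1-S3 and the more abundant RT1-T24 genes had not risen with SNI, so in SNI + G15 they stood below sham: by 1.06 on the log2 scale for RT1-S3, 0.61 for RT1-T24-4 and 1.42 for RT1-T24-3 (all 3 called, edgeR).

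Of the 7 RT1-CE genes, all called higher in the same SNI libraries against sham, 5 fell with G15, beside 7.25% of all tested genes. The fall ran from RT1-CE4 (fell by 0.52, adjusted p = 0.00563, edgeR) to RT1-CE5 (fell by 0.24, adjusted p = 0.0364, edgeR). RT1-CE13, RT1-CE7 and RT1-CE2 were at log2 fold changes of -0.47, -0.43 and -0.41. The calls of RT1-CE5 and RT1-CE13 were lost in 6 and 4 of 16 alternatives. RT1-CE3, at 22.54, 23.48 and 19.84 FPKM in SNI and 22.08, 20.92 and 25.28 in SNI + G15, and RT1-CE10 did not pass. RT1-A2 was called lower (log2 fold change -0.34, adjusted p = 0.0405, edgeR) and RT1-A1 was not (log2 fold change -0.28, adjusted p = 0.0663, edgeR). For both RT1-A genes all SNI + G15 values lay below all SNI values, with replicate 3 of SNI + G15 the nearest to SNI. Summed over the 26 class I genes, FPKM was 381.6 ± 10.1 (SD, n = 3) in sham, 499.1 ± 9.47 in SNI and 386 ± 32.0 in SNI + G15.

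Among class II genes the B chains fell and most others did not pass. RT1-Bb fell by 0.84 on the log2 scale (standard error 0.05, adjusted p = 3.98e-05, edgeR), to 0.558 of the SNI level, and RT1-Ba by 0.53 (standard error 0.05, adjusted p = 0.000357, edgeR). RT1-Da fell by 0.20 (adjusted p = 0.0356, edgeR), and Cd74 by 0.25 (adjusted p = 0.0069, edgeR). RT1-DMa had 27.57, 26.56 and 25.49 FPKM in SNI and 25.89, 30.24 and 29.93 in SNI + G15 (adjusted p = 0.272, edgeR), and RT1-DMb 21.82, 23.86 and 22.09 beside 25.47, 24.96 and 24.24 (adjusted p = 0.0936, edgeR). The ratio of RT1-Bb to RT1-DMa accordingly went from 1.54 ± 0.09 to 0.79 ± 0.03 (SD, n = 3), with no overlap. Ciita had 1.36, 1.25 and 1.34 FPKM in SNI and 0.96, 1.11 and 0.89 in SNI + G15, and its call (fell by 0.42, adjusted p = 0.0467, edgeR) was lost in 10 of 16 alternatives.

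Among the partners of class I, Tap1 fell by 0.52, Tapbp by 0.46 and B2m by 0.32 on the log2 scale (adjusted p = 0.00118, 0.00177 and 0.00116, edgeR), each without overlap. Tap2 and Psmb10 differed by 0.01 and 0.03 with standard errors of 0.11 and 0.06, and Psmb8, Psmb9 and Nlrc5 were lower without passing (adjusted p = 0.136, 0.104 and 0.0537, edgeR).

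Set against sham, SNI + G15 still had higher class II levels, while class I genes lay on both sides. Of 39 members 18 were higher and 7 lower, where 21.4% of all tested genes were higher and 21.9% lower (43.2% in either direction), and both this comparison and that with SNI use the same SNI + G15 libraries. The FPKM did not overlap for 20 members higher and 9 lower, beside 30.1% and 22.8% of all tested genes (52.9% in either direction). Class II was higher in 7 of 9 genes, with RT1-Bb 4.60-fold and RT1-Da 3.05-fold above sham (adjusted p = 8.64e-08 and 3.04e-07, edgeR), and RT1-DOa and RT1-DOb did not pass (adjusted p = 0.0865 and 0.0533, edgeR). Cd74 and Ciita were 2.80-fold and 2.42-fold higher (adjusted p = 8.98e-08 and 0.000176, edgeR). Class I had 7 higher, 6 lower and 7 that did not pass, and all 6 lower genes were of the RT1-N, RT1-S and RT1-T24 series. Tap1, Tapbp, Psmb8, Psmb9 and Nlrc5 did not differ past the threshold from sham, Tap2 and Psmb10 were higher (1.25-fold and 1.23-fold, adjusted p = 0.0281 and 0.0136, edgeR), and B2m was lower (0.893-fold, adjusted p = 0.0366, edgeR). The B2m call was lost in 8 of 16 alternatives, with adjusted p up to 0.15. The Tap2 call was lost without any 1 of the 3 sham replicates or without SNI + G15 replicate 3 (adjusted p up to 0.0821), and the Psmb10 call without sham replicate 1 (adjusted p = 0.0578). Among class I genes called in this comparison, RT1-CE5 (6 alternatives, adjusted p up to 0.134) and RT1-A1, RT1-CE10, RT1-M6-2 and RT1-S2 (1 each, adjusted p up to 0.0549) also lost theirs.

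Other genes of the same pathways gave further context. Beside the counts of these lists and those that follow, 23.3% of all tested genes rose and 22.4% fell with SNI. With G15 7.98% rose and 7.25% fell. Of 13 further genes of class I peptide supply and loading, 8 rose with SNI and 4 fell with G15. Hspa5, the main chaperone of the endoplasmic reticulum, rose 1.54-fold with SNI and fell by 0.41 on the log2 scale with G15 (adjusted p = 5.04e-07 and 0.000684, edgeR). Calr, which holds class I chains for loading, rose 1.33-fold and fell by 0.17 (adjusted p = 2.78e-06 and 0.0118, edgeR). Erap1, which trims peptides, rose 1.31-fold (adjusted p = 7.62e-05, edgeR). Of 12 further genes of class II processing, 7 rose and 1 fell with SNI, and 3 rose with G15 (edgeR). Ctss, the protease that cuts the invariant chain, rose 1.96-fold with SNI (adjusted p = 1.33e-07, edgeR) and had an adjusted p of 0.46 for G15. Ifi30, a thiol reductase of the same compartment, was at 11.73, 13.10 and 13.34 FPKM in sham, 25.70, 25.70 and 25.97 in SNI and 30.85, 30.65 and 30.68 in SNI + G15. March1, a ligase that removes class II from the surface, rose 3.53-fold with SNI (adjusted p = 2.52e-06, edgeR). Of 5 tested class I-like genes without the RT1 prefix, 1 rose with SNI, Procr (2.14-fold, adjusted p = 0.000471, edgeR), and 1 with G15, Fcgrt, which encodes the neonatal Fc receptor that also pairs with B2m (1.26-fold, adjusted p = 0.00341, edgeR).

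Among 17 tested regulators of MHC transcription, 11 rose with SNI, and with G15 2 fell and 1 rose. The G15 count is close to the 15.2% of all tested genes called with G15 in either direction. Jak2, a kinase of interferon gamma receptors, and Irf8, a transcription factor of macrophages, rose 2.10-fold and 2.52-fold with SNI (adjusted p = 9.43e-08 and 5.68e-07, edgeR). Irf8 had 6.88, 6.53 and 6.26 FPKM in SNI and 5.98, 6.95 and 6.38 in SNI + G15, which overlapped. Ifng, which encodes interferon gamma, was listed at 0 in all sham and SNI libraries and at 0.11 FPKM in each SNI + G15 library. These values lie far below the filter of 1 FPKM, and Ifng was not tested. Of 20 interferon response genes outside the members, 8 rose and 3 fell with SNI, and 18 fell with G15 (edgeR). The part of interferon signalling in the members' values was not tested.

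Of 8 tested genes that read MHC, 5 rose with SNI, and with G15 2 rose and 3 fell. Cd4 had 11.96, 12.54 and 12.17 FPKM in sham, 25.56, 26.43 and 26.03 in SNI and 28.41, 28.29 and 28.40 in SNI + G15, and in the rat macrophages carry it as well as T cells. Cd8a had 0.67, 0.86 and 0.62 FPKM in sham, 1.37, 1.21 and 1.25 in SNI and 2.47, 2.12 and 2.71 in SNI + G15, higher in SNI than in sham and higher again with G15 (adjusted p = 0.019 for SNI against sham, edgeR). Cd3e, which defines T cells, had 0.54, 0.43 and 0.33 FPKM in sham, 0.91, 1.06 and 1.44 in SNI and 0.27, 0.43 and 0.49 in SNI + G15. Cd8a and Cd3e thus moved in opposite directions with G15 (adjusted p = 0.0142 and 0.01, edgeR). Cd8b, the partner chain of Cd8a, was below the filter and not tested. It was at 0.56 to 0.65 FPKM in SNI and 0.35 to 0.43 in SNI + G15, the opposite direction to Cd8a. Cd274, the inhibitory ligand PD-L1, rose 1.69-fold with SNI and fell by 0.49 on the log2 scale with G15 (adjusted p = 7.31e-07 and 0.00151, edgeR). Erythroid genes also moved, with a summed FPKM between 96.8 and 100.5 in sham, between 324 and 331 in SNI and between 193 and 227 in SNI + G15, and what part blood in the tissue had in the members' values was not tested. Schwann cell markers, of the glia that ensheath the axons, had a summed FPKM between 5205 and 5334 in sham, between 2912 and 2973 in SNI and between 3125 and 3254 in SNI + G15, and 4 of 5 fell with SNI and 4 rose with G15.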

How the data were processed

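The 9 DRG libraries, 3 for each of sham, SNI and SNI + G15, were used. For genes and transcripts the authors deposited estimated counts, with no normalization and often with decimals, and FPKM values. The aligner is not given in the sources used here, and the submitters' processing notes name GRCm38 and mm10, mouse builds, for these rat samples. Columns called control were taken as sham, the only group without columns once titles had been matched.

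After rounding, the deposited estimated counts were analysed with edgeR 4.0.16 in R 4.3.3 (TMM factors, quasi-likelihood test, Benjamini-Hochberg adjustment). Each fit held the compared groups only and the 14305 genes that reached 1 FPKM in any library. Alternatives were DESeq2 1.42.0, limma 3.58.1 on log2 of FPKM with 1 or 0.1 added, RLE or upper-quartile factors, no filter or filterByExpr, all 9 libraries together, a replicate block, counts rounded down, and single libraries left out. The test was checked on simulated whole counts, drawn for each gene separately and with few genes changed. That check does not cover reads divided between genes, nor as many changed genes as were called here. Depth of 18484557 to 18756736 counts limits the precision of members near the filter.

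The members and gene lists were chosen with earlier results of these data known. All members are named, and of each list at most 4 called genes with the smallest adjusted p in a comparison, beside defining genes of immune cells and Ifng. A few genes under this rule are not reported here. All 46 members matched RefSeq (GRCr8) by gene ID, and 40 had a promoter there. RT1-CE7, RT1-M1-4, RT1-M2, RT1-DMb, Ciita and Nlrc5 had none. GRCr8 served for names, gene order and sequence only. The authors' TPM and group averages were not used.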

Additional observations from a re-analysis of the deposited data

How the results depend on the processing

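Of the calls made among the members, 29 of 32 (SNI against sham), 12 of 19 (SNI + G15 against SNI) and 17 of 25 (SNI + G15 against sham) held in all 16 alternative fits of each comparison. The counts of all genes called ranged, with each library left out, from 5382 to 6237, from 893 to 2333 and from 5101 to 6015, in that order. Between SNI + G15 and SNI the count of 2179 genes was 1098, 925 and 893 without SNI replicates 1, 2 and 3. The counts of members called higher ranged from 27 to 29, from 0 to 0 and from 14 to 19, and those called lower from 3 to 4, from 12 to 22 and from 6 to 7. Fitted log2 fold changes near 0, none of them called, changed sign when a library was left out. Against sham in SNI these were RT1-O1 (-0.17 to 0.075) and RT1-M1-2 (-0.20 to 0.078). Between SNI + G15 and SNI they were Tap2 (-0.10 to 0.10), RT1-M1-2 (-0.12 to 0.17), RT1-CE3 (-0.025 to 0.13), Psmb10 (-0.037 to 0.060) and RT1-M3-1 (-0.043 to 0.16). Between SNI + G15 and sham they were RT1-CE13 (-0.085 to 0.14), RT1-CE4 (-0.16 to 0.0069), RT1-M3-1 (-0.16 to 0.037), Nlrc5 (-0.25 to 0.13) and RT1-M1-2 (-0.14 to 0.045). Between SNI + G15 and SNI, limma with pseudocounts of 1 and 0.1 gave -0.0084 and -0.005 for RT1-M1-2 and -0.0079 and -0.0094 for Tap2, and rounding counts down gave -0.0092 for RT1-M1-2, where the cause was not tested.

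The replicate block lowered the genes called between SNI + G15 and SNI from 2179 to 1292 and the members called lower from 19 to 16. Nothing in the labels says that replicate numbers pair the libraries. On deviations from group means, 0 of 9 correlations of same-numbered libraries were over 0.1 (-0.125 to 0.092). Own numbers correlated best in 3 of 18 cases. With 3 libraries a group, such deviations are mostly spread around the group's own mean, so these values cannot exclude pairing. Depth limits most the tested members with fewest estimated counts, RT1-M1-2 (18.4 to 27.1 over the libraries), RT1-O1 (13.0 to 29.0), RT1-M6-2 (8.44 to 33.2), RT1-DOb (5 to 34), RT1-DOa (10.9 to 38.5), RT1-Db2 (30.8 to 74.3) and RT1-T24-1 (36.7 to 80.4). Counts that are not whole limit single class I genes.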
